A study of Arabidopsis thaliana with 16 samples.

Results

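The genes described here encode the FTSH and DEG proteases of the Arabidopsis thaliana thylakoid membrane, the 4 FTSH genes FTSH1 (AT1G50250), FTSH2 (AT2G30950), FTSH5 (AT5G42270) and FTSH8 (AT1G06430) and the 3 DEG genes DEG1 (AT3G27925), DEG5 (AT4G18370) and DEG8 (AT5G39830). They were found by locus in the authors' annotation of the array, where each of the 7 loci has 1 probe set among the 28403 probe sets analysed, and 27208 loci are represented in all. Whole rosettes of the wild type Col-0 (WT), of a SAP3 knockout (sap3) and of a CML49 knockout (cml49) were compared in low light (LL) and high light (HL). SAP3 encodes a zinc finger protein of the stress-associated protein family and CML49 a calmodulin-like protein. All plants had grown for 3 weeks at 80 µmol photons per square metre and second and then for 10 days at 8 µmol, and LL plants were harvested in that light. HL plants had been moved to 800 µmol for 60 min by the titles and the design text, or for 10 min by the treatment protocol. WT and sap3 have 3 arrays in each light, each from 15 plants. WT and cml49 also have 1 pooled array in each light, each from 45 plants, so that the series holds 16 arrays. All groups were of the same age, and the labels name no insertion line for either knockout. Values are log2 signals, on which a difference of 1 is a doubling.

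FTSH proteases are ATP-dependent zinc metalloproteases anchored in the membrane. In the thylakoid they form mixed ring-shaped complexes of type A subunits, FTSH1 and FTSH5, and type B subunits, FTSH2 and FTSH8, and subunits of the same type can replace each other in part. Loss of FTSH2 (also VAR2) or of FTSH5 (also VAR1) gives variegated leaves. The DEG proteases are serine proteases that need no ATP, and DEG1, DEG5 and DEG8 lie in the thylakoid lumen, where DEG5 and DEG8 form a complex together. Both families take part in the repair of photosystem II, in which the light-damaged D1 reaction centre protein is degraded and replaced by a new copy.

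The probe sets lie on chromosome 1 at 18614209 to 18617063 for FTSH1 (minus strand, 15 probes) and at 1960058 to 1963011 for FTSH8 (minus strand, 11 probes). That of FTSH2 lies on chromosome 2 at 13174321 to 13177223 (plus strand, 16 probes) and that of FTSH5 on chromosome 5 at 16902486 to 16905294 (plus strand, 16 probes). DEG1 is measured on chromosome 3 at 10366371 to 10368905 (minus strand, 29 probes), DEG5 on chromosome 4 at 10149129 to 10151218 (plus strand, 28 probes) and DEG8 on chromosome 5 at 15942797 to 15945827 (plus strand, 28 probes). These are positions in the authors' annotation, for which the sources used here give no genome build, and they span the annotated genes, so that the exons or untranslated regions hit by single probes are not known. The annotation places each of the 7 probe sets in the class expected to hybridise with 1 transcript only.

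Some arrays go against their labels. A light score, computed on 250 probe sets that separate the LL pools (score 0) from the HL pools (score 1) and that include 0 of the 7 genes, was 0.03 to 0.06 for 5 of the arrays labelled LL and 0.92 to 1.00 for 4 of those labelled HL. The remaining 3 opposed their labels, with 0.07 in WT_HL_2, 0.95 in sap3_LL_2 and 0.03 in sap3_HL_3. SAP3 itself had its highest signal, 6.98, in the array labelled sap3_LL_2 and 3.94 in WT_HL_2, below the 4.84 to 5.14 of the arrays labelled WT in LL. It was 4.21 in sap3_LL_1 and 4.05 in sap3_LL_3, and 5.06 in sap3_HL_1 and 5.28 in sap3_HL_2. WT_HL_1 and WT_HL_3 had 6.14 and 6.48. These sap3 arrays thus kept a SAP3 signal, lower than in WT of the same light but higher in HL than in LL. At a like light score, SAP3 in sap3_LL_2 and in WT_HL_2 lay nearer the arrays of the other genotype label. Their genotype labels are therefore in doubt as well. CML49 was lower in the pools labelled WT (2.77 in LL and 3.30 in HL) than in those labelled cml49 (3.97 and 4.23). The authors' deposited table averages the pools labelled cml49 with the WT replicates and the pools labelled WT with the sap3 replicates. No array was relabelled, every direction between groups is one between labels, and each result is given for the 12 single-replicate arrays as labelled and for the 9 that remain without these 3. The rosette label was checked on marker genes. Of 5 leaf mesophyll markers, RBCS1A, CA1, CAB1 and THI1 had signals of 9.88 to 13.40 in all 16 arrays and LHCB2.1 had 5.36 to 6.61, whereas the root iron transporter IRT1 had 1.06 to 1.71 and the flower gene AP3 1.16 to 1.89. PYK10, the root myrosinase on the root list, had 7.90 to 9.31.

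FTSH1, FTSH5 and FTSH8 were higher in HL wherever the light state of the arrays matched their label, in WT, in sap3 and in both pairs of pools. Averaged over WT and sap3 in the 9 arrays, FTSH8 rose 2.01-fold, FTSH1 1.68-fold and FTSH5 1.63-fold, while FTSH2 and the 3 DEG genes did not pass the test. With all 12 arrays as labelled, 0 of the 7 genes passed. In rosettes, fewer cells of a type and less RNA per cell cannot be told apart.

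FTSH8, a type B subunit, showed the largest light difference of the 7 genes in each of these comparisons. Its log2 signal was 6.33, 6.40 and 6.36 in WT LL and 7.25, 6.69 and 7.51 in WT HL, where 6.69 belongs to WT_HL_2. In sap3 it was 6.55, 7.19 and 6.11 in LL, where 7.19 belongs to sap3_LL_2, and 7.43, 7.23 and 6.43 in HL, where 6.43 belongs to sap3_HL_3. All other arrays labelled HL thus lay above all others labelled LL, and each of the 3 arrays lay nearer the mean of the opposite label within its genotype. WT_HL_2 was the highest of the arrays with a low light score. As labelled, the group means were 6.36 ± 0.04 for WT LL, 7.15 ± 0.42 for WT HL, 6.62 ± 0.54 for sap3 LL and 7.03 ± 0.53 for sap3 HL (SD, n = 3 each), in the order WT LL, sap3 LL, sap3 HL, WT HL. The means of WT HL and sap3 HL, and those of sap3 HL and sap3 LL, differed by less than their spread. Those of WT HL and sap3 LL differed by more than the SD of WT HL (0.42), but not by more than that of sap3 LL (0.54). Without the 3 arrays the order was sap3 LL (6.33 ± 0.31, n = 2), WT LL (6.36 ± 0.04, n = 3), sap3 HL (7.33 ± 0.14, n = 2) and WT HL (7.38 ± 0.18, n = 2), and neighbours of the same light did not differ beyond their spread.

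FTSH1, a type A subunit, had 7.96, 7.88 and 7.94 in WT LL and 8.84, 7.95 and 8.60 in WT HL, with 7.95 in WT_HL_2. In sap3 it had 8.04, 8.75 and 7.99 in LL and 8.70, 8.73 and 8.02 in HL, with 8.75 in sap3_LL_2 and 8.02 in sap3_HL_3. The values thus formed a lower set of 7.88 to 8.04 and an upper set of 8.60 to 8.84, which followed the light score in all 12 arrays. Group means as labelled were 7.93 ± 0.04 and 8.46 ± 0.46 in WT and 8.26 ± 0.43 and 8.48 ± 0.40 in sap3 (SD, n = 3 each), LL before HL.

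FTSH5, the other type A subunit, had 7.61, 7.40 and 7.60 in WT LL and 8.37, 7.45 and 8.16 in WT HL, with 7.45 in WT_HL_2. In sap3 it had 7.41, 8.24 and 7.58 in LL and 8.19, 8.17 and 7.55 in HL, with 8.24 in sap3_LL_2 and 7.55 in sap3_HL_3. These values again split by the light score, into 7.40 to 7.61 and 8.16 to 8.37. As labelled, the means were 7.54 ± 0.12 and 7.99 ± 0.48 in WT and 7.74 ± 0.44 and 7.97 ± 0.36 in sap3 (SD, n = 3 each), again LL first.

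FTSH2, the type B subunit whose loss causes the more severe variegation, varied less. It had 8.95, 8.86 and 8.95 in WT LL and 9.32, 8.98 and 9.24 in WT HL. As labelled, every WT HL array lay above every WT LL array. This included WT_HL_2 at 8.98, an array with a low light score (0.07). In sap3 it had 8.97, 9.02 and 9.04 in LL and 9.06, 9.05 and 8.88 in HL, and the groups overlapped only through sap3_HL_3. Means as labelled were 8.92 ± 0.05 and 9.18 ± 0.18 in WT LL and HL, and 9.01 ± 0.04 in sap3 LL (SD, n = 3 each). As labelled, the mean of sap3 HL lay below that of sap3 LL, by a difference of -0.01, with an SD of 0.10 (n = 3), and without sap3_HL_3 it was 9.05 ± 0.01 (SD, n = 2).

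**Figure D1:**
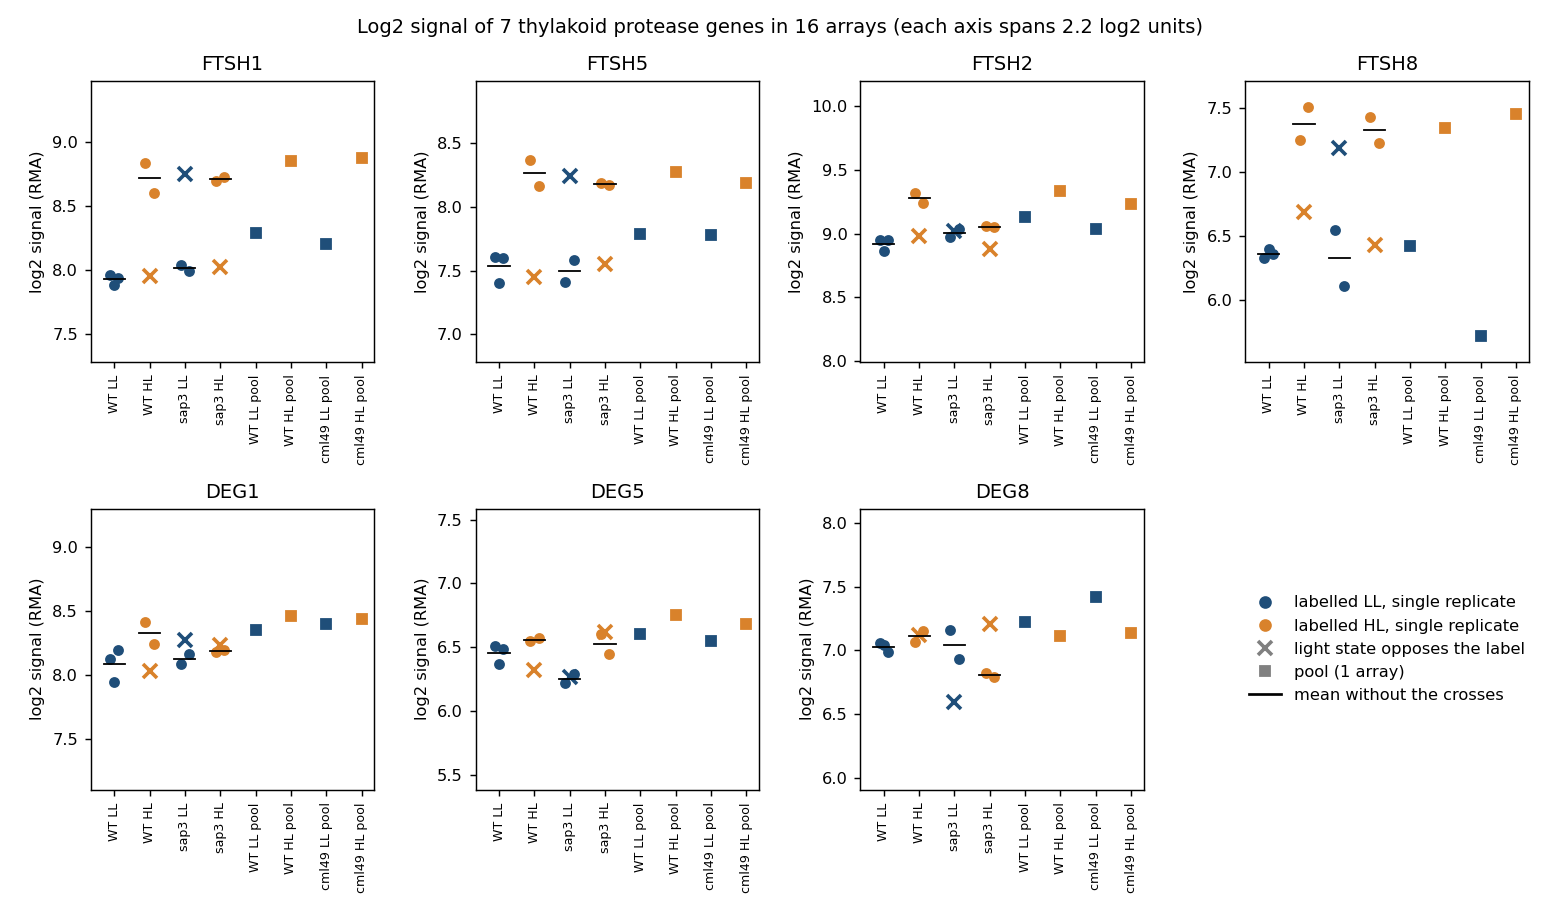
Log2 signal (y axis) of the 7 genes in all 16 arrays, by labelled group (x axis). Circles are single replicates, squares pools of 1 array each, crosses the 3 arrays whose light state opposes the label, blue is labelled LL, orange labelled HL, and lines are group means without the crosses. For FTSH1, FTSH5 and FTSH8 the crosses labelled HL sit low and the cross labelled LL sits high. For FTSH2 the crosses labelled HL also sit lowest in their groups, but the cross labelled LL lies among its group. No DEG gene has all 3 crosses placed so, and the sap3 crosses of DEG8 lie the other way round.

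Among the lumen proteases, DEG1, a protease that also assists photosystem II assembly, had 7.94 to 8.19 in WT LL and 8.03 to 8.41 in WT HL, with the lowest HL value in WT_HL_2. It had 8.08 to 8.27 in sap3 LL and 8.18 to 8.23 in sap3 HL. The LL and HL ranges overlapped in both genotypes.

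DEG5 had 6.51, 6.37 and 6.49 in WT LL and 6.55, 6.32 and 6.57 in WT HL. In sap3 it had 6.22, 6.27 and 6.29 in LL and 6.60, 6.45 and 6.62 in HL. The sap3 groups as labelled did not overlap, and sap3_LL_2 (6.27) and sap3_HL_3 (6.62) fell in with the arrays of their own label, not with those of their light score. The sap3 means were 6.26 ± 0.04 in LL and 6.56 ± 0.09 in HL (SD, n = 3 each), a difference of 0.30 (SE 0.12) with an unadjusted p of 0.0288 and an adjusted p of 0.994 in limma.

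DEG8, the partner of DEG5, had 7.06, 7.04 and 6.99 in WT LL and 7.07, 7.12 and 7.15 in WT HL. In sap3 it had 7.16, 6.60 and 6.93 in LL and 6.82, 6.79 and 7.21 in HL, with 6.60 in sap3_LL_2 and 7.21 in sap3_HL_3. The sap3 arrays with a high light score thus had the lowest DEG8 signals of all 16 arrays. The single-replicate WT arrays did not show this order. Among these sap3 arrays is sap3_LL_2, the array with the highest SAP3 signal (6.98). In the pools DEG8 was lower in HL, with 7.22 and 7.11 in WT and 7.42 and 7.14 in cml49, in LL and HL. The sap3 means were 6.90 ± 0.28 and 6.94 ± 0.23 as labelled (SD, n = 3 each) and 7.04 ± 0.16 and 6.80 ± 0.02 without the 3 arrays (SD, n = 2 each), in LL and HL.

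Light differences were tested with limma over all probe sets. In the 12 arrays as labelled, 0% of all probe sets passed an adjusted p of 0.05 in WT, in sap3 and in the mean of both genotypes, and so did 0 of the 7 genes. At an unadjusted p under 0.05, limma gave 1751 probe sets in WT, 891 in sap3 and 2185 over both, and a mean-dependent prior also gave 0 calls in each. In WT, the log2 differences were 0.79 for FTSH8 (SE 0.31, unadjusted p 0.0271, adjusted p 0.713), 0.54 for FTSH1 (SE 0.27), 0.46 for FTSH5 (SE 0.28) and 0.26 for FTSH2 (SE 0.12). The last 3 had adjusted p-values of 0.713 as well. The DEG genes gave 0.14 (DEG1), 0.02 (DEG5) and 0.08 (DEG8) in WT. In sap3 the differences were 0.41 for FTSH8, 0.22 for FTSH1, 0.23 for FTSH5, -0.01 for FTSH2, 0.03 for DEG1 and 0.04 for DEG8, with adjusted p-values of 0.994 to 0.997. Over both genotypes FTSH8 was at 0.60 (SE 0.22, unadjusted p 0.0188, adjusted p 0.619).

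Without the 3 arrays, FTSH1, FTSH5 and FTSH8 rose in WT and in sap3, and over both genotypes. These arrays were left out by their light state, so these calls cannot stand as separate evidence that light acts on the genes. In WT, 3 of the 7 genes passed, beside 9.13% of all probe sets, and 4.99% of all probe sets passed as higher in HL. FTSH8 rose by 1.02 (SE 0.17, adjusted p 0.00388), FTSH1 by 0.79 (SE 0.14, adjusted p 0.00468) and FTSH5 by 0.73 (SE 0.15, adjusted p 0.011). FTSH2 was at 0.36 in WT (95% confidence interval 0.07 to 0.65, adjusted p 0.134), and the DEG genes at 0.24, 0.10 and 0.08 for DEG1, DEG5 and DEG8 (adjusted p 0.394 to 0.818). In sap3 the same 3 genes passed, beside 7.57% of all probe sets and 4.09% as higher in HL. FTSH8 rose by 1.00 (SE 0.19, adjusted p 0.00836), FTSH1 by 0.70 (SE 0.15, adjusted p 0.0177) and FTSH5 by 0.69 (SE 0.16, adjusted p 0.027). FTSH2 was at 0.05 (95% confidence interval -0.27 to 0.37), DEG1 at 0.06, DEG5 at 0.27 and DEG8 at -0.24 (adjusted p 0.362 to 0.901).

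Over both genotypes in the 9 arrays, 3 of the 7 genes passed, all higher in HL, beside 15.1% of all probe sets and 7.76% as higher in HL. The median difference of the 7 genes was 0.21, against -0.02 over all probe sets. FTSH8 stood at 1.01 (SE 0.13, adjusted p 0.000337), FTSH1 at 0.75 (SE 0.10, adjusted p 0.000595) and FTSH5 at 0.71 (SE 0.11, adjusted p 0.00132), and the size of the FTSH8 difference exceeded that of 95.8% of all probe sets. FTSH2 was at 0.21 (95% confidence interval -0.01 to 0.42, adjusted p 0.207). These 3 calls held when any 1 of the 9 arrays was left out, with adjusted p-values of up to 0.00267 for FTSH8, 0.00466 for FTSH1 and 0.00944 for FTSH5.

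Within a genotype the calls depended on single arrays, since 2 or 3 arrays remained per group. In WT, leaving out WT_HL_1 gave adjusted p-values of 0.0715 for FTSH1 and 0.124 for FTSH5, and leaving out WT_HL_3 gave 0.0577 for FTSH8. In sap3, FTSH1 was lost without sap3_LL_1 (0.0608), sap3_HL_1 (0.0771), sap3_HL_2 (0.0705) or sap3_LL_3 (0.0885). FTSH5 was lost without the same arrays, with 0.132, 0.12, 0.085 and 0.0652 in that order. FTSH8 was lost in sap3 without sap3_HL_1 (0.0691) or sap3_LL_3 (0.0652). The log2 differences behind these values stayed between 0.60 and 0.90.

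**Figure D2:**
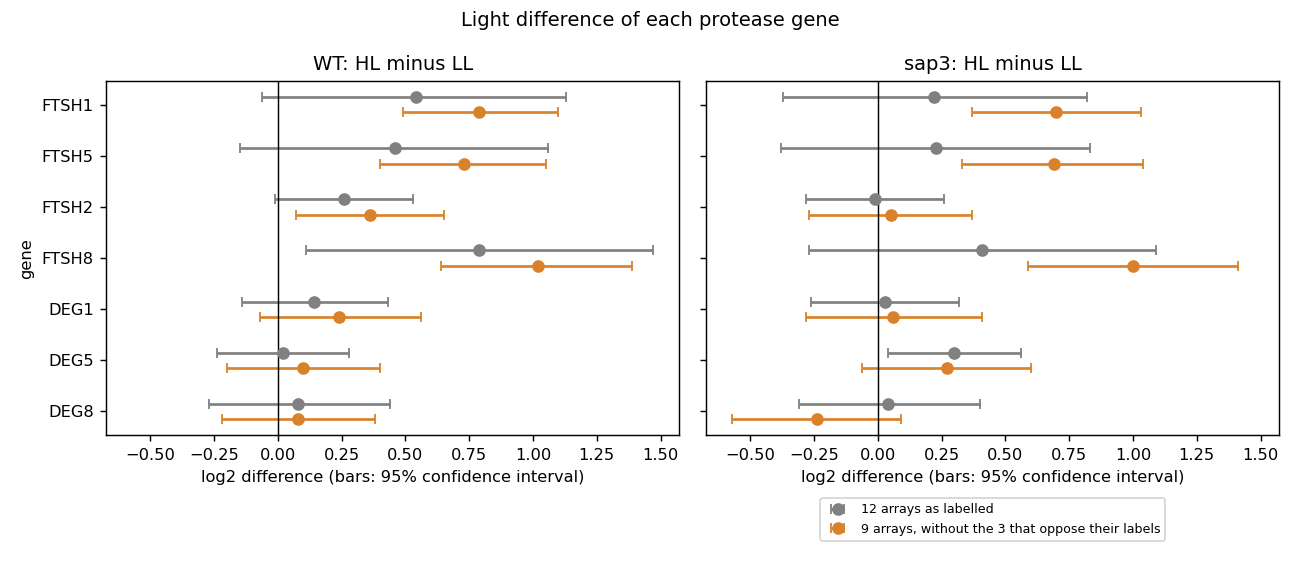
Log2 difference of HL minus LL (x axis) for each gene (y axis) in WT and in sap3, with bars for the 95% confidence interval from limma, for the 12 arrays as labelled (grey) and the 9 arrays (orange). In the 9 arrays the intervals of FTSH1, FTSH5 and FTSH8 lie above 0 in both genotypes, and FTSH2 differs between 0.36 in WT and 0.05 in sap3, a gap that did not pass its own test.

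The light score, which uses the labels of the 4 pools and not those of the 12 single-replicate arrays, shows the same split. Arrays with scores of 0.03 to 0.07 held 7.88 to 8.04 for FTSH1 and 7.40 to 7.61 for FTSH5, and arrays with scores of 0.92 to 1.00 held 8.60 to 8.84 and 8.16 to 8.37. For FTSH8 the corresponding ranges were 6.11 to 6.69 and 7.19 to 7.51. The arrays form separate clusters on this score, so no correlation was computed.

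**Figure D3:**
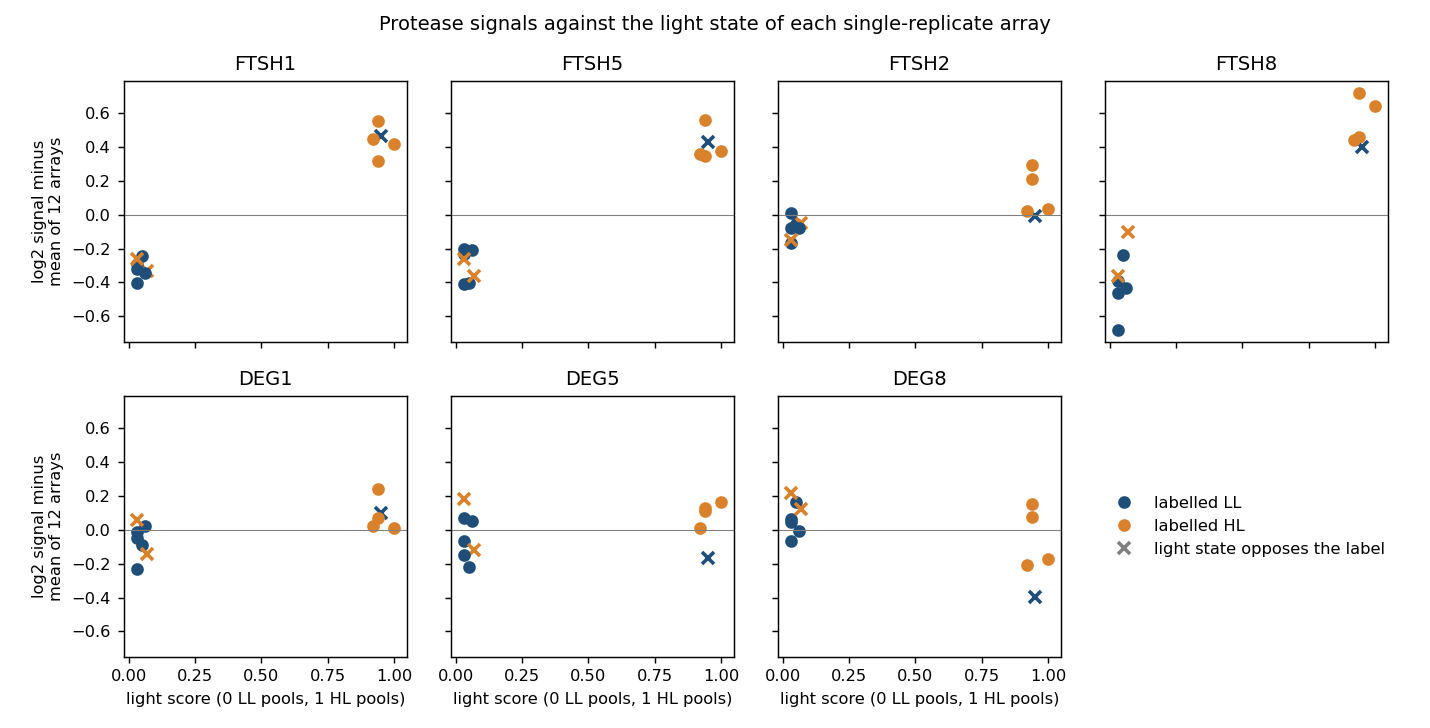
Log2 signal minus the gene's mean over 12 arrays (y axis) against the light score (x axis, from 0, the LL pools, to 1, the HL pools), 1 point per single-replicate array, coloured by label, with crosses for the 3 arrays that oppose their label. FTSH1, FTSH5 and FTSH8 separate into a low and a high set along the score, and the other genes overlap. For FTSH2 the overlap arises only because sap3_LL_2 (9.02) lies below sap3_LL_3 (9.04).

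Without the 3 arrays, FTSH1, FTSH5 and FTSH8 had larger light differences than FTSH2. The difference between the signals of each pair of FTSH genes was taken within each array, and its light difference was tested by a two-sided exact permutation of the light labels within genotype, adjusted over the 6 pairs. In the 9 arrays, the light difference exceeded that of FTSH2 by 0.80 for FTSH8, 0.54 for FTSH1 and 0.50 for FTSH5, each with an exact p of 0.0167, the smallest that 60 permutations can give, and an adjusted p of 0.0334. In each of these 3 pairs the LL and HL arrays did not overlap in either genotype. Among FTSH1, FTSH5 and FTSH8 no pair passed. FTSH1 minus FTSH5 was 0.04 (exact p 0.55), FTSH5 minus FTSH8 was -0.30 (exact p 0.133), and FTSH1 minus FTSH8 was -0.26 (exact p 0.15). With the 12 arrays as labelled no pair passed after adjustment (adjusted p 0.18 to 0.405), the lowest exact p being 0.05 for FTSH8 against FTSH2 at 0.48. This test was added after the values had been seen, and the 9 arrays were kept by their light state. Its p-values in these arrays thus cannot stand as separate evidence that the genes differ in their response to light. The 2 type B genes, FTSH2 and FTSH8, were the pair farthest apart.

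Whether these levels differ between the arrays labelled sap3 and WT was asked in each light and as a difference of the light responses. A SAP3 signal remained in the sap3 arrays, so this is not a test of its complete loss. As labelled, sap3 minus WT ranged from -0.20 to 0.33 over the 7 genes in LL and from -0.18 to 0.08 in HL. None of the 7 passed in either light, beside 0% of all probe sets in each. At an unadjusted p under 0.05, limma gave 1283 probe sets in LL and 812 in HL, with 0 of the 7 genes among them. In the 9 arrays the ranges were -0.20 to 0.09 in LL and -0.31 to -0.01 in HL, and again none of the 7 passed, beside 0% in LL and 0.00352% in HL, which is the single probe set of AT3G60950, named after its value was seen. The HL differences of FTSH1, FTSH5 and FTSH8 were -0.01, -0.08 and -0.05 in the 9 arrays, and that of FTSH2 was -0.23 (95% confidence interval -0.54 to 0.09).

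The difference of the light responses, sap3 minus WT, passed for none of the 7 genes in the 12 or in the 9 arrays, beside 0% of all probe sets in both. At an unadjusted p under 0.05, limma gave 744 probe sets in the 12 and 1192 in the 9 arrays, with 0 of the 7 genes among them. In the 9 arrays it was -0.02 for FTSH8 (95% confidence interval -0.58 to 0.54), -0.09 for FTSH1 (-0.54 to 0.36) and -0.04 for FTSH5 (-0.52 to 0.44). The intervals are wide beside the responses themselves, and a missed threshold does not show that the genotypes respond alike. FTSH2 was at -0.31 (-0.74 to 0.12, unadjusted p 0.137), DEG8 at -0.32 (-0.77 to 0.13), DEG1 at -0.18 and DEG5 at 0.17, each with an adjusted p of 1.

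In the pools, with 1 array per group and no replicate check, FTSH8, FTSH1 and FTSH5 had the largest light differences of the 7 genes in both genotypes. FTSH8 had 6.42 in the WT LL pool and 7.35 in the WT HL pool, a difference of 0.93, and 5.72 and 7.46 in the cml49 pools, a difference of 1.74. The value of 5.72 was the lowest FTSH8 signal of all 16 arrays. FTSH1 differed by 0.56 in WT (8.29 and 8.85) and by 0.68 in cml49 (8.20 and 8.88), and FTSH5 by 0.48 (7.79 and 8.27) and 0.41 (7.78 and 8.19). FTSH2 differed by 0.20 and 0.19, DEG1 by 0.11 and 0.04, DEG5 by 0.15 and 0.13, and DEG8 by -0.11 and -0.28. A size of at least 1 was reached by 0 of the 7 genes in WT, beside 7.75% of all probe sets, and by 1, FTSH8, in cml49, beside 6.36%. Between the genotypes, cml49 minus WT was -0.70 for FTSH8 in LL and 0.11 in HL. The other 6 genes ranged from -0.09 to 0.20 in LL and, with FTSH8, all 7 from -0.10 to 0.11 in HL. None reached a size of 1, beside 1.3% of all probe sets in LL and 1.07% in HL.

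The authors' deposited table includes a pool in the mean of each set of 3 replicates. Pools labelled cml49 are part of its WT means, and pools labelled WT are part of its sap3 means. It gives a WT light ratio in log2 of 1.031 for FTSH8 (p 0.00595, not adjusted), 0.574 for FTSH1 (p 0.0449), 0.444 for FTSH5 (p 0.0855) and 0.239 for FTSH2 (p 0.0276). For sap3 the authors' deposited table gives 0.546 for FTSH8 (p 0.143), 0.306 for FTSH1 (p 0.279), 0.289 for FTSH5 (p 0.281) and 0.037 for FTSH2 (p 0.722). Of the DEG genes, DEG5 in sap3 has the lowest p in the authors' deposited table, 0.0449, with a log2 ratio of 0.265. The 3 arrays that oppose their labels are part of these means.

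Profiles over the 12 single-replicate arrays were compared for FTSH8 and FTSH1, the genes with the largest SD over these arrays (0.50 and 0.39), by the root mean square difference of signals centred on each gene's mean. Among the 13727 brighter probe sets (those of a single locus whose mean reaches the median), the one nearest to FTSH1 was that of FTSH5 (0.078). Next came AT4G03260 (0.089), AT1G78230 (0.092), HSC70-1 (AT5G02500, a cytosolic heat shock cognate chaperone, 0.094) and BB (AT3G63530, the ubiquitin ligase BIG BROTHER, 0.099). From FTSH1, FTSH8 ranked 411 and FTSH2 1841, and DEG1, DEG5 and DEG8 ranked 2106, 3797 and 9029. Nearest to FTSH8 were AT4G22740 (0.113), G-TMT (AT1G64970, gamma-tocopherol methyltransferase of vitamin E synthesis, 0.132), AT4G18810 (0.139), CER1 (AT1G02205, an enzyme of wax alkane synthesis, 0.141) and AT4G15810 (0.150). From FTSH8, FTSH1 ranked 119, FTSH5 281 and FTSH2 2358. The measure follows the light state of the arrays as much as any other difference between them, and is a description with no test.

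Related proteases and photosystem II factors were read in the same light difference over both genotypes. With the 12 arrays as labelled, none of their genes passed, beside 0% of all probe sets. The following values are from the 9 arrays, in which 15.1% of all probe sets passed and the median of all was -0.02. Of 13 other FTSH and proteolytically inactive FTSHi genes, 1 rose and none fell, with a median of 0.01. FTSH10, a subunit of a mitochondrial inner membrane protease, rose by 0.70 (SE 0.12, adjusted p 0.00215). FTSH3, its mitochondrial partner, was at -0.32 (adjusted p 0.0677), and FTSH9, a plastid member, at 0.30 (adjusted p 0.083). FTSH10 had 6.76 to 7.07 in WT LL and 7.73, 7.13 and 7.67 in WT HL, and FTSH11 was at 0.29 (adjusted p 0.144). Of 6 other DEG genes, 3 fell and none rose, with a median of -0.29. They were DEG7 (-0.65, SE 0.13, adjusted p 0.00748), DEG15 (-0.58, SE 0.12, adjusted p 0.00872), which processes proteins in peroxisomes, and DEG2 (-0.44, SE 0.12, adjusted p 0.0274), a protease of the stromal thylakoid side. The DEG genes of the lumen, at 0.15, 0.19 and -0.08, did not pass.

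Of 15 genes of the stromal Clp protease, 1 rose and none fell, with a median of -0.07. It was AT1G68660, a ClpS-type substrate adaptor, at 0.47 (SE 0.11, adjusted p 0.0134), while the core subunits CLPR4 and CLPP3 were at -0.22 and -0.21 (adjusted p 0.187 and 0.236). Of 10 other plastid proteases and peptidases, 2 rose and none fell, with a median of 0.02. EGY3, a thylakoid homologue of site-2 metalloproteases that lacks the catalytic motif, rose by 2.04 (SE 0.13, adjusted p 4.1e-06), from 4.05 to 4.33 in WT LL to 6.05 and 6.30 in WT_HL_1 and WT_HL_3. Its signals of 4.26 in WT_HL_2, 7.73 in sap3_LL_2 and 4.02 in sap3_HL_3 opposed the labels as those of FTSH1 did. SPPA, a thylakoid-bound serine protease, rose by 0.45 (SE 0.12, adjusted p 0.0304), and PREP1, which degrades transit peptides, was at 0.30 (adjusted p 0.141).

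Of 26 listed factors of photosystem II assembly and repair, 25 were measured, STN8 being present only as a probe set outside the main category. Without the 3 arrays, 6 fell and 2 rose, with a median of -0.12. AT5G02160, which encodes the FtsH5-interacting protein FIP of the thylakoid, fell by 1.02 (SE 0.12, adjusted p 0.000267). Its signals were 10.13, 9.85 and 10.10 in WT LL and 8.88, 10.01 and 9.04 in WT HL, and 9.91, 8.73 and 10.20 in sap3 LL and 9.21, 8.94 and 10.00 in sap3 HL. The gene was thus low in every single-replicate array of the upper FTSH5 set and high in every one of the lower set. In the pools it had 10.41 and 9.34 in WT and 10.36 and 9.11 in cml49, in LL and HL. PAM68, an assembly factor, fell by 0.71 (SE 0.12, adjusted p 0.00302) and LPA2, another assembly factor, fell by 0.62 (SE 0.11, adjusted p 0.00313). The lumenal immunophilin CYP38 (-0.58), AT1G67700 (-0.49) and the insertase ALB3 (-0.39) fell too, with adjusted p-values of 0.00701, 0.0198 and 0.0374. Those that rose were OHP (0.50, adjusted p 0.0361), a one-helix protein, and PSB28 (0.56, adjusted p 0.0476), an assembly factor. These last 5 genes were named after their values had been seen. In the 12 arrays AT5G02160 was at -0.47 (SE 0.28, adjusted p 0.627) and HCF244, a factor for D1 synthesis, had the lowest unadjusted p of the list (0.0323, at 0.35).

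**Figure D4:**
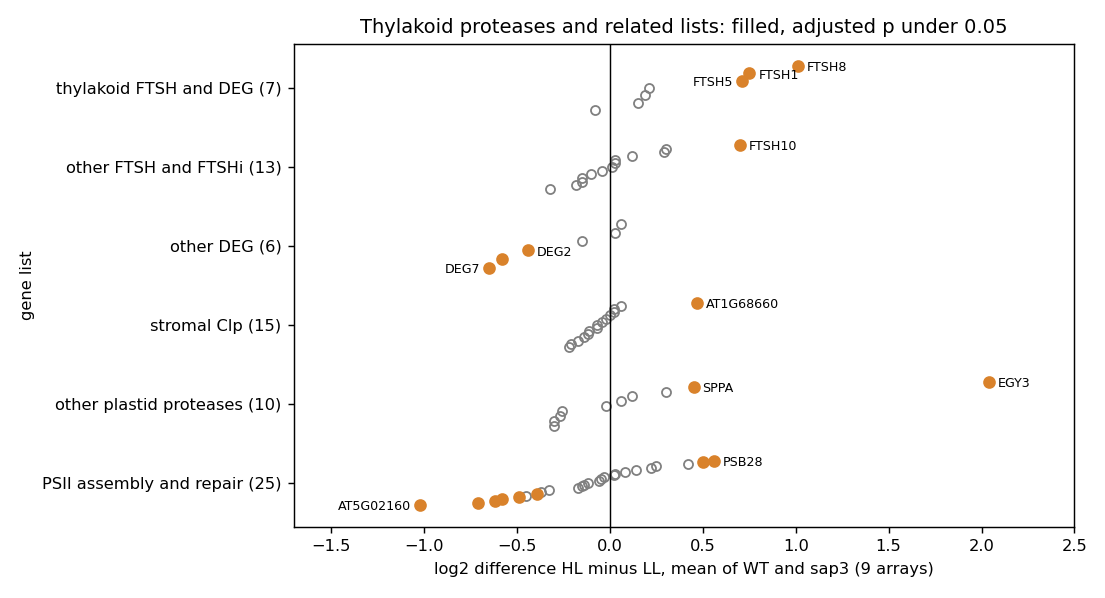
Log2 difference of HL minus LL over both genotypes in the 9 arrays (x axis) for each measured gene, 1 point per gene, by gene list (y axis, number of genes in brackets). Filled points passed an adjusted p of 0.05, and within a list the points are stacked in order of the difference. FTSH1, FTSH5 and FTSH8 lie on the right with FTSH10 and EGY3, while AT5G02160 lies farthest to the left at -1.02.

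Markers of other cells moved with light in part. Of 4 guard cell markers, 1 passed in the 9 arrays, the potassium channel gene KAT1, which rose by 1.76 (SE 0.10, adjusted p 1.88e-06). FMA, OZS1 and MYB60 were at -0.03, -0.08 and 0.10. The summed linear signal of the 4 was 282 to 321 in WT LL, 706 to 709 in WT HL, 298 to 311 in sap3 LL and 578 to 590 in sap3 HL. KAT1 was the brightest of the 4, with log2 signals of 7.04 to 9.12, and the change in the sum mostly follows KAT1. None of 5 leaf mesophyll, 3 root and 3 flower markers passed, and their sums were 12564 to 16694, 248 to 632 and 11 to 14.6 over these 9 arrays. The part of cell composition in the FTSH differences was not tested.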

How the data were processed

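Whole rosettes were measured on 16 Affymetrix gene arrays. The deposited log2 signals were computed by the authors with RMA in Affymetrix Expression Console, per the submitters' processing notes; version, settings and genome build are not given in the sources used here. They were used as deposited, for 28403 main probe sets of 28501, leaving out 77 rescue and 21 ribosomal RNA probe sets. The array medians of 4.37 to 4.42 called for no further scaling; precision is limited by how few arrays there are. The authors' workbook gave annotation, and its deposited log2 ratios and p-values were copied as the authors' own, per the file headers. Its 16 signal columns could not be matched to samples by name and were not used. Symbols came from a RefSeq gene table (27453 probe sets carry 1 locus, 27 several and 923 none).

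The 12 single-replicate arrays were fitted with limma 3.58.1 in R 4.3.3 (lmFit and eBayes, 4 group means, two-sided), with Benjamini-Hochberg adjustment over all probe sets and a threshold of 0.05. The same fit was run on 9 arrays. Pools were compared by the log2 difference, with a size of at least 1. P-values measure the spread between the samples as labelled, each of 15 plants. The replicate numbers were not used as pairs. Correlations of deviations between same-numbered arrays ran from -0.48 to 0.53 in the 12 arrays, where the 3 opposing arrays shift the group means. In the 9 arrays they ran from -0.04 to 0.07. The fit was tested on simulated data. The 7 genes, the gene lists and the 9-array alternative were chosen with earlier results of these data known. The rule names the 7 genes, up to 3 genes of each related list with the smallest p in each fit, and the 5 nearest profiles of the 2 genes with the largest SD.

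Settings varied were the normalisation (median centring, quantiles again), the variance prior (mean-dependent or robust), array weights, the replicate block, the probe sets used (none dimmer than 4.39, or 1 per locus), the groups in the fit, the threshold (0.01) and each array in turn. As each gene has 1 probe set, the planned comparison of several could not be made.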

Additional observations from a re-analysis of the deposited data

How the results depend on the processing

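Leaving out the 3 arrays that oppose their labels changed the counts most. The 12 arrays gave 0 calls among all probe sets, and the 9 gave 2594 in WT, 2150 in sap3, 4295 over both genotypes and 1 for sap3 against WT in HL. Of the 7 genes, 3 were called in WT, 3 in sap3 and 3 over both, against 0 before. Leaving out 1 of the 12 arrays gave 0 to 1 probe sets in WT light, 0 to 1 over both genotypes and 0 to 1 for sap3 against WT in HL, the 1 in each case without WT_HL_2. Of 308 differences of the 7 genes over these settings, 290 kept their direction and side of the threshold and 12 reversed, all small and not called. FTSH2 in sap3 moved from -0.01 to 0.05 in the 9 arrays and 0.02 with array weights, and DEG8 in sap3 from 0.04 to -0.24 and -0.08. With 1 array left out, FTSH2 in sap3 ranged from -0.05 to 0.04, DEG1 in sap3 from -0.01 to 0.08, DEG8 in sap3 from -0.10 to 0.18 and DEG5 in WT from -0.02 to 0.10. The cause was not tested. With a replicate block the 12 arrays again gave 0 calls. In the 9 arrays the block, added after the data were seen, left 3 genes in WT, 1 in sap3 (FTSH8, adjusted p 0.045, against 0.0706 for FTSH1 and 0.0648 for FTSH5) and 3 over both. With 1 of the 9 arrays left out, 1231 to 2607 probe sets and 1 to 3 of the genes were called in WT, and 1211 to 2029 and 0 to 3 in sap3. The 9 arrays leave 2 or 3 per group, and their number limits what can be detected.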
